A study of Rattus norvegicus with 10 samples.

Results

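The bone morphogenetic protein genes Bmp2, Bmp4 and Bmp6, the activin subunit gene Inhba, the follistatin genes Fst, Fstl1 and Fstl3 and the inhibitor of differentiation genes Id1, Id2 and Id3 were followed in cells isolated from 2 bones of the same rats. Each gene was read from the array probes that the platform annotation gives its symbol, taking the brightest where there were several. All 10 genes were found, among 13336 named genes on the array, each with 1 probe. Skull bone-derived cells (S-Bdc) came from the calvaria and limb bone-derived cells (L-Bdc) from the ulna of 5 male CD rats, untreated and described in the labels as adult. The labels call both osteoblasts, harvested at passage 3 and 95% confluence. Soft tissue, epiphyses and marrow had been removed, and all cultures came from the third collagenase digest and were kept in medium with newborn calf serum. These are primary cultures that can hold other cell types, and each rat and bone was represented by 1 culture and 1 Illumina RatRef-12 array.

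BMPs are secreted dimers of the TGF-beta superfamily, named for inducing bone. They bind pairs of serine-threonine kinase receptors that phosphorylate SMAD1, SMAD5 and SMAD9, and the Id genes are among their fastest targets. Activin A, a dimer of the product of Inhba, acts through related receptors and SMAD2 and SMAD3. Follistatin, the product of Fst, traps activin and, less tightly, several BMPs in the extracellular space.

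The sites differed in both directions. Of the 10, 2 were higher in S-Bdc (Bmp6 and Id2) and 4 were lower (Bmp2, Fst, Fstl3 and Id1) at an adjusted p under 0.05 in limma, and 4 were not called (Bmp4, Fstl1, Inhba and Id3). Over all 22517 probes 9.1% were called, 4.43% higher and 4.68% lower in S-Bdc, and over the brightest probe of each named gene 11.9%. Only Fst differed by at least 2-fold on the fitted scale, as did 0.604% of all probes. The 6 called genes moved the same way in all 5 rats, which held for 16.9% of all probes, and in 4 of them (Bmp2, Bmp6, Fst and Fstl3) the 5 S-Bdc and 5 L-Bdc arrays did not overlap, which held for 7% of all probes. The median size of the difference was 0.525 over the 10 genes and 0.0548 over all probes. The 10 genes were chosen with earlier results of these data known. Of all 22517 probes, 12736 were above background on at least 3 arrays, and the fitted scale shrinks differences near background. These shares and medians therefore do not test the 10 genes as a set. In a whole culture, fewer cells of a type and less RNA per cell cannot be told apart.

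**Figure D1:**
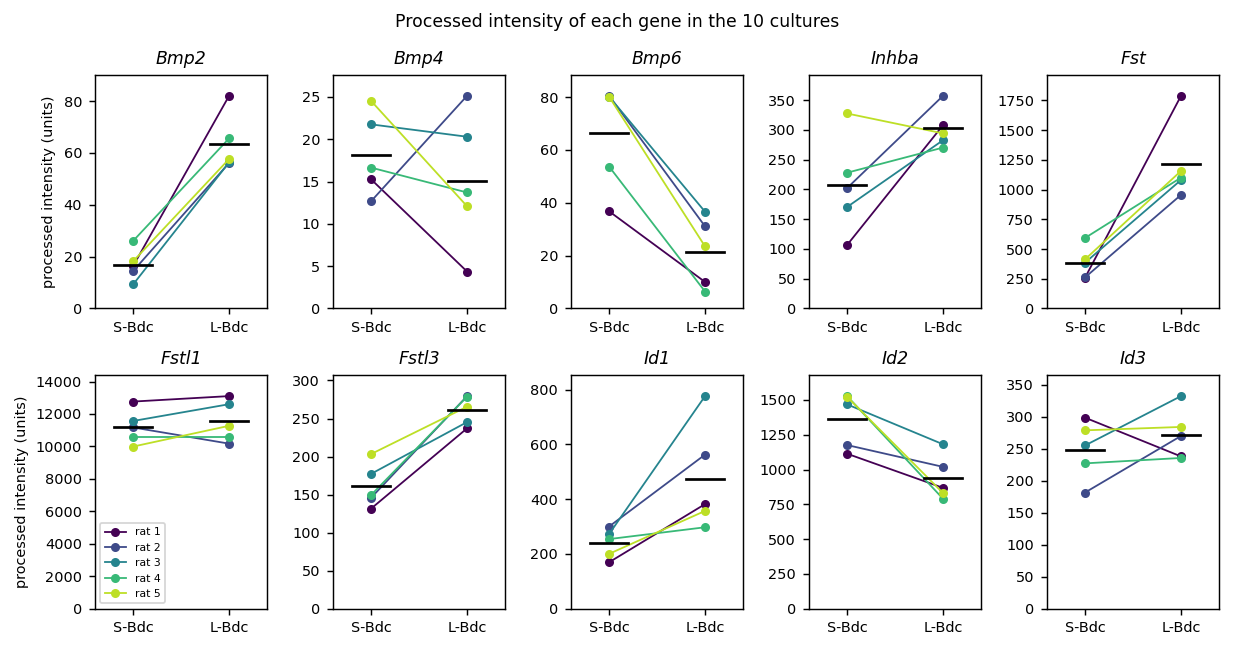
Processed intensity in arbitrary units (vertical axis, linear, from 0) of each of the 10 genes in S-Bdc (left) and L-Bdc (right). Dots are cultures, lines join the cultures of 1 rat, and black bars are site means (n = 5). Bmp2, Fst and Fstl3 lie lower in every S-Bdc than in any L-Bdc culture and Bmp6 higher. The values of Bmp4, Fstl1, Inhba, Id1, Id2 and Id3 overlap between sites.

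Bmp2, a ligand that drives osteoblast differentiation and fracture repair, was lower in S-Bdc. Its processed intensity in S-Bdc of rats 1 to 5 was 16.4, 14.5, 9.28, 26.1 and 18.2 units, against 82.0, 56.1, 56.4, 65.6 and 57.7 units in L-Bdc. The highest S-Bdc culture, that of rat 4 (26.1 units), read well under the lowest L-Bdc culture, that of rat 2 (56.1 units). Every S-Bdc value was above the background range, which ends at 8.51 units, but that of rat 3 only just. The S-Bdc mean of 16.9 ± 6.1 units was 0.266 of the L-Bdc mean of 63.6 ± 11.0 units (SD, n = 5 each). On the normalised log2 scale the difference was -0.67 ± 0.06 (SE, n = 5 pairs, S-Bdc minus L-Bdc as for all differences that follow, limma adjusted p = 1.5e-04). This scale adds 50 units to each signal, which shrinks the difference of a gene this dim. With 16 units added it was -1.04, and on the processed intensities with a floor of 16 units it was -1.79.

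Bmp6, a ligand made by bone and known in the liver as the signal of iron load, went the other way. S-Bdc of rats 1 to 5 read 36.8, 80.5, 80.2, 53.7 and 80.1 units, against 10.02, 31.1, 36.6, 6.40 and 23.5 units in L-Bdc. The lowest S-Bdc culture (rat 1) and the highest L-Bdc culture (rat 3) nearly met, and the L-Bdc value of rat 4 lay within background. The S-Bdc mean of 66.2 ± 20.1 units was 3.08 times the L-Bdc mean of 21.5 ± 13.1 units (SD, n = 5 each). The fitted difference was 0.62 ± 0.06 (SE, limma adjusted p = 2.1e-04). It was 0.95 with 16 units added and 1.44 on the processed intensities with a floor of 16 units. Rats 1 and 4 had the lowest values at both sites. Within rats the fitted-scale difference ran from 0.46 in rat 1 to 0.76 in rat 4.

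Bmp4, the close relative of Bmp2 that patterns early mesoderm and limb buds, was not called. Its intensity was 15.3, 12.7, 21.8, 16.6 and 24.5 units in S-Bdc of rats 1 to 5, against 4.36, 25.1, 20.3, 13.7 and 12.1 units in L-Bdc. The sites overlapped, with rat 2 lower and the other rats higher in S-Bdc. The fitted difference of 0.06 had a 95% interval from -0.10 to 0.22 (limma adjusted p = 0.762), in a gene close to background.

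Fst was lower in S-Bdc, with the largest difference of the 10 genes on the fitted scale, although the ratio of mean intensities was further from 1 for Bmp2. S-Bdc of rats 1 to 5 read 259, 262, 385, 593 and 413 units, against 1789, 955, 1081, 1100.3 and 1157 units in L-Bdc. Each L-Bdc culture lay well above every S-Bdc culture. The S-Bdc mean of 383 ± 137 units was 0.315 of the L-Bdc mean of 1216 ± 328 units (SD, n = 5 each), and the fitted difference was -1.54 ± 0.19 (SE, limma adjusted p = 8.4e-04), 43rd in size among all 22517 probes. It spanned a range from -2.52 in rat 1, which had both the lowest S-Bdc and the highest L-Bdc value, to -0.83 in rat 4. On the processed intensities with a floor the difference was of like size but was not called (-1.70, adjusted p = 0.109).

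Fstl3, a secreted relative of follistatin that also binds activin and myostatin, was likewise lower in S-Bdc. The S-Bdc values of rats 1 to 5 were 132, 146, 177, 149 and 203 units, against 237, 279, 245, 279 and 266 units in L-Bdc. These did not overlap, and the L-Bdc values were close together. The S-Bdc mean of 162 ± 29 units was 0.618 of the L-Bdc mean of 261 ± 19 units (SD, n = 5 each), with a fitted difference of -0.54 ± 0.07 (SE, limma adjusted p = 0.0013). On the processed intensities with a floor it was -0.71 and not called (adjusted p = 0.0891).

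Inhba, the activin A subunit that Fst and Fstl3 antagonise, had a negative difference that did not pass the test. Its intensity in S-Bdc of rats 1 to 5 was 107, 202, 171, 228 and 328 units, against 308, 357, 283, 270.4 and 294 units in L-Bdc. S-Bdc cultures ranged widely while the L-Bdc cultures stayed close together, and rat 5 was the one rat with more Inhba in S-Bdc. The fitted difference was -0.49 ± 0.15 (SE), with a 95% interval from -0.82 to -0.16 and an adjusted p of 0.0774 in limma. Without rat 5 it was -0.64 and passed (adjusted p = 0.0184), as it did in 4 other settings at adjusted p from 0.0109 to 0.0465.

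Fstl1, a secreted glycoprotein of mesenchymal cells that shares the follistatin-like module but is placed in the SPARC family, read 12765, 11170.1, 11570, 10588 and 9993 units in S-Bdc of rats 1 to 5, against 13102, 10173, 12603, 10588 and 11272 units in L-Bdc. The sites were interleaved. The S-Bdc mean was 0.971 of the L-Bdc mean, and the fitted difference of -0.03 had a 95% interval from -0.16 to 0.09 (limma adjusted p = 0.852). Its sign turned under median scaling, without normalisation and without rat 5.

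The Id proteins hold a helix-loop-helix domain but no DNA-binding region, and they keep the E proteins from binding DNA with lineage factors. The 3 genes measured here did not move as a block. Their promoter windows are printed because these close relatives, all known BMP targets, differed in direction between the sites. The windows run from 250 bases before to 50 bases after a RefSeq transcript start, on the rat build GRCr8, and capitals mark any match to 4 motifs searched on both strands. The start used for Id2 is the outermost of the gene, while those of Id1 and Id3 lie 39 and 38 bases inside it.
Id1 (chr3:161671314-161671613, plus strand): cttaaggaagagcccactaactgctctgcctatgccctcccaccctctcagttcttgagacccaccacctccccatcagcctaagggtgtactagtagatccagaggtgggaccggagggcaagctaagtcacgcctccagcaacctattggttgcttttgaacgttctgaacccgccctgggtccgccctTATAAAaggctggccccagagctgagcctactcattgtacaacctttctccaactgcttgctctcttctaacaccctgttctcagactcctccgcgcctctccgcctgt
Id2 (chr6:47470946-47471245, minus strand): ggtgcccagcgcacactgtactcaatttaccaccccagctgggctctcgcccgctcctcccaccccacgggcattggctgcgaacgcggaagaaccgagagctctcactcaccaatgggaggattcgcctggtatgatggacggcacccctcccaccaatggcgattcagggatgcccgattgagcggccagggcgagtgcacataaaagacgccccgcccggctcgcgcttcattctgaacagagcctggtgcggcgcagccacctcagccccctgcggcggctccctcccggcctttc
Id3 (chr5:153656041-153656340, plus strand): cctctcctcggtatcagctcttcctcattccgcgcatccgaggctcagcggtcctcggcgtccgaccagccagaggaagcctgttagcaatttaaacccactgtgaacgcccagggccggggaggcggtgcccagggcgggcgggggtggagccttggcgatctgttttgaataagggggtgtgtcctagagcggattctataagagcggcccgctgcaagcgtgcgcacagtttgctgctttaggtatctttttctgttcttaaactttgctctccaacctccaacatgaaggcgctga
The motifs were GGCGCC, known from BMP-SMAD binding, TGACGT, the core of the cAMP response element, TATAAA, the TATA box, and CACGTG, a form of the E-box, and no matches overlapped. Id1 held TATAAA, and no letters of the Id2 and Id3 windows matched any of the 4. Other forms of these elements were not searched, so their absence from a window is not shown. Windows were given for 8 of the 10 genes, all but Bmp2 and Fst, and those of Bmp4, Bmp6 and Inhba stand at starts 11212, 110297 and 6434 bases inside the gene. Among these 8, TATAAA stood in 3 (Id1, Inhba and Fstl3), GGCGCC in 1 (Fstl1), CACGTG in 1 (Bmp4) and TGACGT in 0. Of 27457 windows of this length, 14.3% held TATAAA, 11.8% GGCGCC, 6.65% CACGTG and 8.22% TGACGT. These matches are a description of letters in a short window.

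Id1 was lower in S-Bdc. It read 170, 300.2, 273, 254 and 200 units in S-Bdc of rats 1 to 5, against 382, 563, 776, 297 and 357 units in L-Bdc. The lowest L-Bdc culture (rat 4) lay just under the highest S-Bdc culture (rat 2), so the sites touched, but each rat had less Id1 in its S-Bdc. The S-Bdc mean of 240 ± 53 units was 0.504 of the L-Bdc mean of 475 ± 195 units (SD, n = 5 each). The fitted difference was -0.78 ± 0.13 (SE, limma adjusted p = 0.0043), from -1.32 in rat 3 to -0.18 in rat 4. On the processed intensities with a floor it was -0.93 and not called (adjusted p = 0.162).

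Id2, which is known to restrain E proteins in many lineages, was higher in S-Bdc. Its values were 1114, 1176, 1468, 1528 and 1522 units in S-Bdc of rats 1 to 5, against 869, 1019, 1182, 790.02 and 831 units in L-Bdc. The sites overlapped, since the L-Bdc of rat 3 exceeded the S-Bdc of rats 1 and 2, but each rat had more in its S-Bdc. The S-Bdc mean of 1362 ± 200.5 units was 1.45 times the L-Bdc mean of 938 ± 161 units (SD, n = 5 each). The fitted difference was 0.51 ± 0.10 (SE, limma adjusted p = 0.014), with 0.90 in rat 4 and 0.83 in rat 5, against 0.20 to 0.34 in the other 3. Without either of those 2 rats the call was lost. The difference was 0.41 without rat 4 (adjusted p = 0.0541) and 0.43 without rat 5 (adjusted p = 0.0508), and was also lost without normalisation (0.57, adjusted p = 0.0762) and on the processed intensities with a floor (0.54, adjusted p = 0.241).

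Id3 was not called. It read 299, 182, 255, 227 and 279 units in S-Bdc of rats 1 to 5, against 238, 270.1, 332, 236 and 284 units in L-Bdc. Rat 1 had more in S-Bdc and the other 4 rats less. The fitted difference was -0.11, with a 95% interval from -0.32 to 0.10 (limma adjusted p = 0.634).

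**Figure D2:**
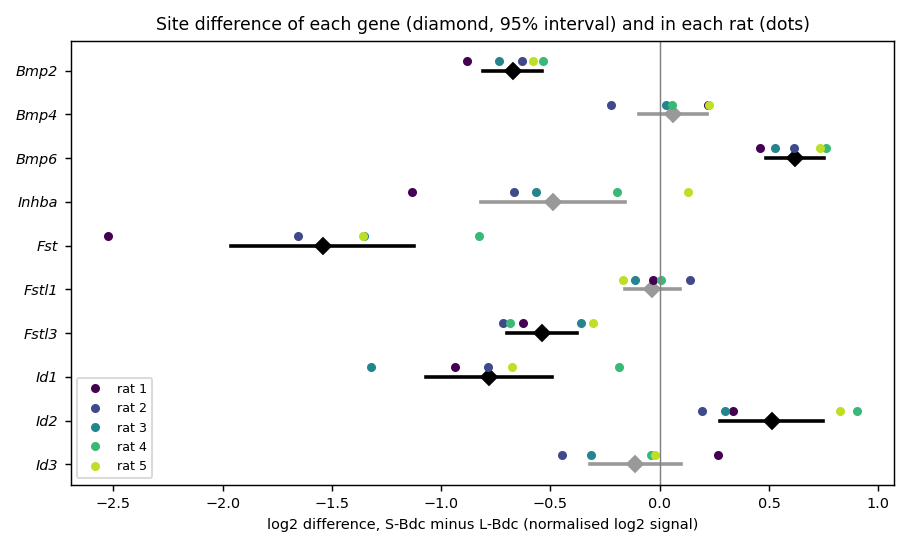
Site difference of each gene on the normalised log2 scale (horizontal axis, S-Bdc minus L-Bdc). Diamonds are fitted differences with 95% intervals, black where the adjusted p was under 0.05, and dots are the differences within each rat. Bmp2 and Bmp6 hold narrow bands on opposite sides of 0, Fst runs from -2.52 to -0.83, and Id1 and Id2 lie on opposite sides.

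Pairs of genes within a family were then compared in the same cultures, by the site difference of one minus that of the other in each rat. The 6 pairs were chosen after the values were seen. Bmp6 and Bmp2 parted by 1.29 ± 0.04 on the normalised log2 scale (SD, n = 5 rats). Both are dim, and they parted by 1.99 ± 0.09 with 16 units added and by 3.23 ± 0.24 on the processed intensities with a floor. The difference of Fst lay further below 0 than that of Inhba (-1.06 ± 0.37) and that of Fstl3 (-1.004 ± 0.62). Id2 parted from Id1 by 1.29 ± 0.27 and from Id3 by 0.62 ± 0.34, and Id1 from Id3 by -0.67 ± 0.44. Each of the 6 had the same sign in 5 of 5 rats. An exact sign-flip permutation test gave a two-sided p of 0.0625 for each, also after adjustment over the 6, which is the smallest that 5 pairs can give. Because the pairs were picked on these same values, the shared signs and this p cannot test whether the genes part. The adjustment does not cover the choice among other possible pairs.

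The rats did not rank alike for the different genes on the normalised log2 scale. Rat 4 had the smallest difference for Bmp2 (-0.54), Fst (-0.83) and Id1 (-0.18), but the largest for Bmp6 (0.76) and Id2 (0.90). Rat 1 had the largest difference for Bmp2 (-0.88), Fst (-2.52) and Inhba (-1.13), and the smallest for Bmp6 (0.46). For the dim genes the order depended on the scale. By the ratio of processed intensities the largest difference of Bmp2 was that of rat 3 (0.165) and the smallest of Bmp6 that of rat 3 (2.19). These orders over 5 rats are given as values only.

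**Figure D3:**
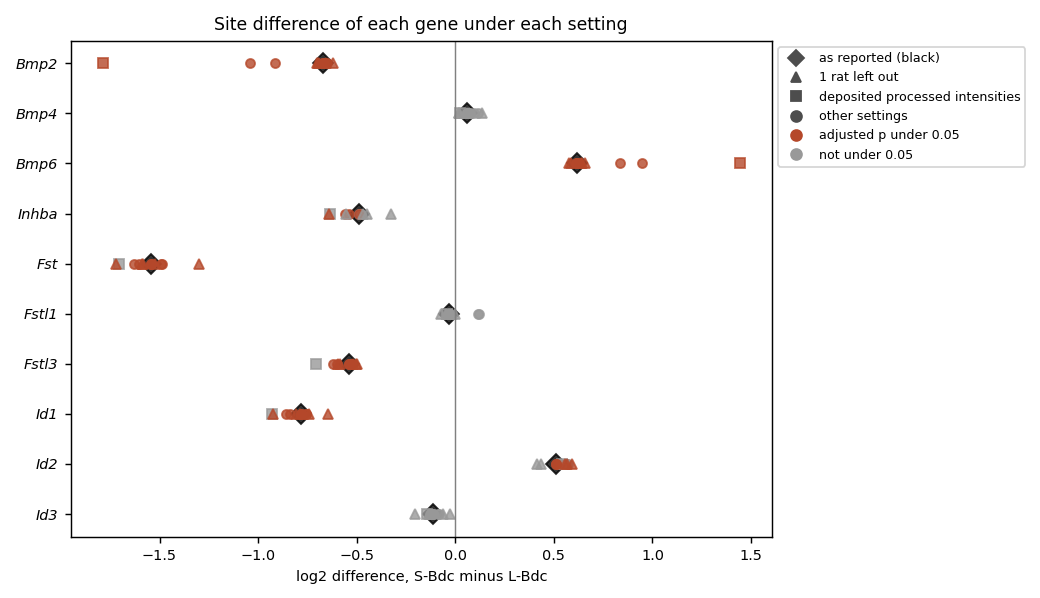
Fitted site difference of each gene (horizontal axis, log2, S-Bdc minus L-Bdc) as reported and under 13 other settings of the processing. Red marks stand for an adjusted p under 0.05. The differences of Bmp2 and Bmp6 grow to -1.79 and 1.44 on the processed intensities, whereas the sign of Fstl1 turns in 3 settings and that of each other gene in 0.

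Other genes of the pathway were counted by list, to be read against the 11.9% called among all named genes. Among other ligands of the BMP and activin family, 18 of 24 listed were measured, 1 was higher and 0 lower in S-Bdc. It was Gdf15, a stress-induced cytokine distant from the BMPs, with 22.3 units in S-Bdc, above background on 5 arrays, and 5.77 units in L-Bdc, above background on 1. Its difference was 0.31 ± 0.07 (SE, limma adjusted p = 0.0183), and the call was lost without rat 2 (0.29, adjusted p = 0.0608) and without rat 3 (0.25, adjusted p = 0.0700). The call was also lost on the processed intensities with a floor (0.47, limma adjusted p = 0.399). Bmp5 (-0.26 ± 0.07, adjusted p = 0.0531) and Gdf10 (-0.35 ± 0.11, adjusted p = 0.0954) were lower in S-Bdc in 5 of 5 rats without passing the test, and Bmp5 was above background on 2 of 5 S-Bdc arrays. A shared direction in all 5 rats held for 16.9% of all probes. Bmp5 passed in 5 of 13 settings, such as without rat 4 (-0.32, adjusted p = 0.0351), and Gdf10 in 3, such as without rat 1 (-0.42, adjusted p = 0.0424). Both passed with an offset of 16 units (-0.46, adjusted p = 0.0094, and -0.59, adjusted p = 0.0070). With any other rat left out neither passed (limma adjusted p up to 0.1652 and 0.2286), nor on the processed intensities with a floor (0.8209 and 0.5886). Without rat 5 the difference of Gdf10 was -0.20 (adjusted p = 0.106).

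Extracellular antagonists and modulators differed in both directions, with 2 higher and 2 lower in S-Bdc of 19 measured. Bmper, the vertebrate crossveinless-2 that binds BMPs and can dampen or aid their action, averaged 189 units in S-Bdc and 42.3 units in L-Bdc, a difference of 1.26 ± 0.10 (SE, limma adjusted p = 7.2e-05). It was the largest difference of this list in either direction. The chordin-like antagonists split. Chrdl1 was higher (48.9 units in S-Bdc, 21.1 in L-Bdc, difference 0.42 ± 0.05, adjusted p = 0.0012) and Chrdl2 lower (6.47 units in S-Bdc, 32.4 in L-Bdc, difference -0.47 ± 0.05, adjusted p = 6.55e-04). Chrdl2 was above background on 1 of 5 S-Bdc arrays. On the processed intensities with a floor, Bmper, Chrdl1 and Chrdl2 were not called (limma adjusted p of 0.05265, 0.0612 and 0.0789). Noggin, Nog, which seals BMP2, BMP4 and other ligands off from their receptors, was lower (16.5 units in S-Bdc, 32.2 in L-Bdc, difference -0.26 ± 0.07, adjusted p = 0.0364). The call of Nog was lost in 7 of 13 settings, among them without rats 2, 3 and 4 in turn (adjusted p of 0.0951, 0.145 and 0.0869) and without the rat as a block (0.129). Gremlin 1, Grem1, a BMP antagonist of the limb bud, was not called, with 7525 units in S-Bdc and 8002 in L-Bdc (difference -0.12, 95% interval from -0.42 to 0.17, adjusted p = 0.736).

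Of 10 receptor genes, 1 was higher and 0 lower in S-Bdc. This was Tgfbr3, the co-receptor betaglycan, which helps inhibin oppose activin (74.9 units in S-Bdc, 39.8 in L-Bdc, difference 0.42 ± 0.09, limma adjusted p = 0.0163). Its call was lost without rats 3, 4 and 5 in turn (adjusted p from 0.0578 to 0.0626) and in 3 settings of the scaling or the values. The BMP receptor genes Bmpr1a (0.06, 95% interval from -0.19 to 0.31) and Bmpr2 (0.07, from -0.18 to 0.32) were not called. Of 10 SMAD and regulator genes, 1 was lower, the inhibitory SMAD gene Smad7, which BMPs and TGF-beta both induce (36.1 units in S-Bdc, 64.5 in L-Bdc, difference -0.36 ± 0.06, adjusted p = 0.0051). The call of Smad7 was lost without normalisation (-0.35, limma adjusted p = 0.0860) and on the processed intensities with a floor (-0.83, adjusted p = 0.0986). The other inhibitory SMAD gene, Smad6, differed by -0.27 ± 0.08 (limma adjusted p = 0.0671). It passed in 4 of 13 settings, such as without rat 1 (-0.36, adjusted p = 0.0040). Without each other rat in turn it did not pass (adjusted p from 0.1505 to 0.2412). Smad1, a carrier of the BMP signal, was not called (0.03, 95% interval from -0.13 to 0.18).

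Among 11 measured target genes of BMP signalling, 1 was higher and 2 lower in S-Bdc. The difference was below 0 in 9 of the 11, with a median of -0.0427, and 6 had an unadjusted p under 0.05, of which Msx2 was the one above 0. The matching shares over all genes were not counted, so these counts cannot be read as a shift of the targets as a set. Some of the 9 lay close to 0, such as Hey1 (-3.9e-04), Msx1 (-0.0092) and Sp7 (-0.016). Smad6 and Smad7 are also counted in the SMAD list. The homeobox gene Msx2 was higher (114 units in S-Bdc, 9.82 in L-Bdc, difference 1.29 ± 0.11, limma adjusted p = 1.5e-04) and Dlx5 lower (13.1 units in S-Bdc, 103 in L-Bdc, difference -1.12 ± 0.12, adjusted p = 4.7e-04), and Smad7 was the other lower gene. Msx2 was above background on 3 of 5 L-Bdc arrays and Dlx5 on 3 of 5 S-Bdc arrays. The call of Dlx5 was lost on the processed intensities with a floor (-2.42, limma adjusted p = 0.0565). Junb, an AP-1 gene that BMPs induce in myoblasts, differed by -0.33 ± 0.10 (limma adjusted p = 0.0702). It passed in 4 of 13 settings, such as without rat 1 (-0.43, adjusted p = 0.0057). Without each other rat in turn it did not pass (adjusted p from 0.0862 to 0.2525). Of 8 basic helix-loop-helix partners of the Id proteins, 0 were called in limma and 3 had an unadjusted p under 0.05. Tcf3, the E protein gene also called E2A, had the lowest adjusted p of these (-0.20 ± 0.06, adjusted p = 0.0660).

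**Figure D4:**
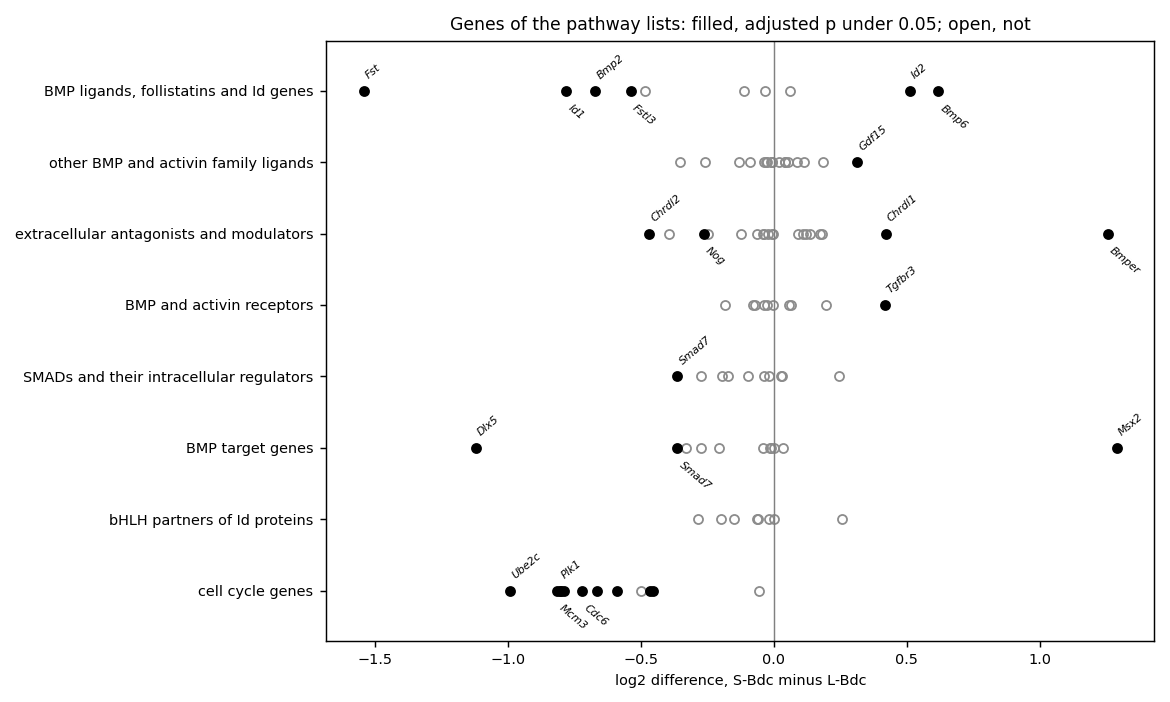
Site difference (horizontal axis, log2, S-Bdc minus L-Bdc) of each measured gene in 8 lists, 1 row per list. Filled points passed an adjusted p of 0.05 and are named, in the cell cycle row only for the 4 genes given in the text. The BMP-related rows hold called genes on both sides of 0, such as Bmper at 1.26 and Dlx5 at -1.12, and the 10 called cell cycle genes all lie below 0.

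Among all other named genes, those that followed each called gene most closely were found by the mean absolute distance between standardised values on the 10 arrays. Genes of the pathway lists were not left out of this search. Nearest to Bmp2 were Smoc2, a matricellular protein gene (distance 0.139), and the nuclear receptor gene Nr4a3 (0.143). Nearest to Fst were the DNA repair gene Ercc1 (0.177) and Rbmx2 (0.190), and nearest to Fstl3 were Prrc1 (0.164) and Rarres1 (0.214). Bmp6 was followed most closely by Kyat1 (0.167) and Cmip (0.228), Id2 by the repair gene Xpa (0.175) and Gigyf1 (0.207), and Id1, less closely, by Tppp2 (0.252) and Grk6 (0.253). Tppp2 lay within background on all 10 arrays, so its likeness to Id1 is one of values in the background range. Rbmx2, Grk6, Gigyf1 and Tppp2 were themselves not called between sites (limma adjusted p of 0.101, 0.117, 0.171 and 0.488). The distance is set in large part by the shared split between sites, and it carries no test.

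The labelled cell type was checked against its markers. The collagen gene Col1a1 (5486 units in S-Bdc, 3634 in L-Bdc) and osteopontin, Spp1 (3134 units in S-Bdc, 10797 in L-Bdc), were above background on all 10 arrays, as were Col1a2 (11567 units in S-Bdc, 11716 in L-Bdc), alkaline phosphatase, Alpl (60.04 units in S-Bdc, 47.1 in L-Bdc), and bone sialoprotein, Ibsp (28.2 units in S-Bdc, 26.9 in L-Bdc). The osteoblast factor Sp7 was above it on 2 S-Bdc and 1 L-Bdc arrays, osteocalcin, Bglap, on 3 S-Bdc and 1 L-Bdc arrays, and the osteocyte gene Phex on 0 arrays. Col1a1 was higher in S-Bdc (0.58 ± 0.06, limma adjusted p = 3.8e-04) and Spp1 lower (-1.81 ± 0.12, adjusted p = 3.1e-05). The call of Col1a1 was lost on the processed intensities with a floor (0.59, adjusted p = 0.0527). Of 48 listed markers of osteoclasts, macrophages, endothelium, fat, skeletal muscle, cartilage and nerve, 33 were measured, for osteoclasts 2 of 6. Of the 33, 0 were called in limma, 4 had an unadjusted p under 0.05 and 14 were in the background range on every array. Those 4 were the fat markers Cfd (0.70) and Pparg (0.24), higher in S-Bdc, and Myod1 (-0.28) and S100b (-0.27), lower. Calcr of osteoclasts, Ptprc of leukocytes, Cdh5 of endothelium, Adipoq of fat cells and Col2a1 of cartilage were among those 14. The other 19 were above background on at least 1 array, among them Ctsk (1800 units in S-Bdc, 1982 in L-Bdc), Cd14 (348 units in S-Bdc, 397 in L-Bdc), S100b (219 units in S-Bdc, 273 in L-Bdc) and Cfd (147 units in S-Bdc, 69.1 in L-Bdc) on all 10.

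Markers of tendon and fibroblasts moved with site. Of 5 listed, 3 were measured and all 3 were higher in S-Bdc, Tnmd (1.02 ± 0.11, limma adjusted p = 5.6e-04), Dpt (1.44 ± 0.21, adjusted p = 0.0022) and Pdgfra (0.39 ± 0.08, adjusted p = 0.0112, lost in 5 of 13 settings, such as without rat 3 at 0.38 and adjusted p = 0.0534). The call of Tnmd was lost in 1 and that of Dpt in 2 of 13 settings. The summed intensity of the 3 markers was 1127 to 1971 units in S-Bdc and 677 to 1033 units in L-Bdc. Most of it was Pdgfra, with means of 1057 units in S-Bdc and 789 in L-Bdc. This list was chosen with earlier results of these data known, so the 3 calls are no independent check of cell type. Their part in the differences of the BMP, follistatin and Id genes was not tested.

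Cell cycle genes moved with site too. All 12 with a probe had a difference below 0, and 10 passed the test as lower in S-Bdc, among them Plk1 (-0.81 ± 0.06, limma adjusted p = 8.3e-05), Cdc6 (-0.72 ± 0.08), Ube2c (-0.99 ± 0.11) and Mcm3 (-0.82 ± 0.10). Cdc6, Ube2c and Mcm3 each lost the call in 1 of 13 settings. Ccnb1, 1 of the 12, was not called and lay within background on all 10 arrays, so its sign (-0.05) is one of background values. The median difference over the list was -0.362, -0.381, -0.665, -0.838 and -1.06 in rats 1 to 5. On the normalised log2 scale the differences of Id2 (0.90 and 0.83) and Bmp6 (0.76 and 0.73) were also largest in rats 4 and 5. Those of Fst and Id1 were smallest in rat 4, that of Bmp2 in rats 4 and 5 (-0.54 and -0.58), and that of Fstl3 in rat 5 (-0.30). The difference of Inhba was -1.13 in rat 1 and 0.13 in rat 5. By the ratio of processed intensities, Bmp6 differed more in rat 1 (3.67) than in rat 5 (3.41). The part of these genes in the differences of the BMP, follistatin and Id genes was not tested.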

How the data were processed

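mRNA of 10 cultures was measured on Illumina RatRef-12 arrays, 1 per culture, so that the number of arrays limits the precision. The authors deposited 2 tables from BeadStudio. The first holds raw average bead signal, an intensity with no background subtraction or normalisation evident (array medians 40.6 to 48.1 units). The second, called processed intensities here, holds deposited intensities that by their values are background subtracted (24.0 to 24.1% at or below 0) and normalised between arrays (medians 9.36 to 9.40 units). The method of that step is not given in the sources used here. The difference score of the methods was not computed.

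The 2 tables carry different row identifiers, so each raw row was joined to the value row with the closest ranks over the 10 arrays. The join was mutual and unique for all 22517, with distances up to 0.264% of the rank range, and the runner-up lay 6.35 times as far or more. After exchanging the sites, 36.0% were joined. Gene names rest on this pairing and on the platform annotation, which gives 13787 probes a symbol and 8730 none. All 10 genes stand under the same symbol in the RefSeq gene table. Promoter sequences are RefSeq's (GRCr8).

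Background correction of the raw signals used normexp (offset 50). Log2 values were then quantile normalised. All steps ran in limma 3.58.1 under R 4.3.3. On all probes, lmFit and eBayes fitted site with rat as a block, with Benjamini-Hochberg adjustment over all of them and 0.05 as the threshold. Cultures are paired through the animal named in the labels. For rats 1 to 5, the deviations of the paired cultures from their site means had correlations of 0.0597, 0.211, 0.25, 0.176 and 0.129, and S-Bdc of rat 1 correlated best with L-Bdc of rat 5 (0.284). The background range ends at 8.51 units, the 0.95 quantile of the mirrored values at or below 0. Alternatives were median scaling, no normalisation, an offset of 16, no background correction, the processed intensities with a floor of 16 units, a filter (above background on 3 arrays), no block, another prior and each rat left out. The fit was tested on simulated data.

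The 10 genes and the lists were chosen with earlier results of these data known. Named were the 10 genes, up to 4 called genes per pathway list with the lowest adjusted p, and the 2 genes nearest in pattern to each called gene. Bmp5, Gdf10, Grem1, Bmpr1a, Bmpr2, Smad1, Smad6, Junb, Tcf3, Hey1, Msx1, Hand2, Ccnb1 and the cell type markers given with values were named after their values were seen.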

Additional observations from a re-analysis of the deposited data

Results flagged for a closer look

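Within a site of 5 arrays, 1 array stood apart from the other 4 for 4 of the named genes, where chance gives about 1 in 20 groups and 98 groups were examined. None of them belonged to the 10 BMP, follistatin and Id genes. On the normalised log2 scale, Chrdl2 read 6.35 in S-Bdc of rat 4, against 5.98 to 6.03 in the other S-Bdc cultures. Spp1 read 10.87 in S-Bdc of rat 1, against 11.59 to 11.87 in the others. Cmip, one of the genes nearest to Bmp6 in pattern, read 9.14 in S-Bdc of rat 1, against 9.34 to 9.39. Prrc1, one of those nearest to Fstl3, read 8.69 in L-Bdc of rat 2, against 8.63 to 8.64.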

How the results depend on the processing

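Over 13 settings the 10 genes gave 130 values, of which 115 kept their direction and their side of the threshold, 7 lost a call, 5 gained one and 3 turned in sign. The number called, 6, became 2 (Bmp2 and Bmp6) on the processed intensities with a floor and was 5 to 6 with 1 rat left out. Over all probes 2050 were called (997 higher and 1053 lower in S-Bdc, 48.6% higher). This became 1268 under median scaling (559 lower), 870 without normalisation (513 higher and 357 lower, 59.0% higher) and 204 on the processed intensities (122 higher and 82 lower, 59.8% higher). With 1 rat left out it was 1323 to 2219 (671 to 1081 higher, 652 to 1138 lower), lowest without rat 3. Without the replicate block it was 1915, and 6 of the 10 genes were called. Fstl1 (-0.03) turned in sign under median scaling (0.1155) and without normalisation (0.1195). Some signs turned as rats were left out in turn, with ranges from -0.07448 to 9.7e-04 for Fstl1, from -0.09499 (without rat 1) to 0.1286 for Bmpr1a, and, with the turn without rat 5, from -0.07738 to 0.1402 for Bmpr2, from -0.05117 to 0.06636 for Smad1 and from -0.2274 to 0.03312 for Grem1. The cause of these changes was not tested. Each of the 10 genes had 1 probe, so other probes could not be tried, and Tppp2 gave no value on the processed intensities because its arrays all lay at the floor. Bmp2, Bmp4 and Bmp6 lie near background, which limits the precision of their ratios.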
